A study of Mus musculus with 12 samples.

Results

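The genes of cholesterol synthesis and the related targets of the transcription factor SREBP2 were followed in mouse liver, library by library. They were a fixed list of 28 gene symbols, and all 28 were among the 24527 symbols of the deposited count table. All 28 also passed the filter on low counts, which left 13204 genes for testing. Livers had been taken at 39 weeks of age from offspring of CF1 females and B6SJL males in 4 groups of n = 3 libraries. IVF females and IVF males had been conceived by in vitro fertilization (IVF) with a protocol of the Jackson Laboratory, and natural females and natural males had been conceived by mating. The groups shared the cross, the age and the tissue, and the labels name no modified gene, drug or diet. The labels give neither the litter of an animal, nor the hour of collection, nor the feeding state, and they do not state that each library came from a separate animal. The titles of IVF female replicate 1 and IVF male replicate 2 share a number whose meaning is not stated. The p-values therefore measure the spread between these libraries.

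Cells make cholesterol from acetyl-CoA through mevalonate, isoprenoids, squalene and lanosterol, and the liver is a main site of this synthesis. When sterols in the endoplasmic reticulum membrane are scarce, the escort protein Scap carries SREBP2 to the Golgi, where it is cleaved, and the released part enters the nucleus and activates genes of the pathway through sterol response elements. When sterols are plentiful, the Insig proteins hold Scap and SREBP2 in the endoplasmic reticulum, and hepatic expression of the pathway is known to vary with feeding and with the time of day.

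Total counts per library ran from 6826534 in IVF female replicate 1 to 27832271 in natural male replicate 3. Natural female replicate 2 was also shallow, with 8056230 counts, and in these 2 libraries GC-rich genes tended to be low. The median deviation of log2 CPM (counts scaled to library size with TMM factors) from the gene's mean was -0.44 in both libraries over the fifth of the genes with the highest GC content. The members spanned 41.07% GC in Idi1 to 59.15% in Mvd, so results are also given without these libraries where that matters. Xist and the Y-linked genes matched the labelled sex in 6 of 6 female and 6 of 6 male libraries. The tissue label was checked with 6 hepatocyte markers, which summed to 66300 to 102000 CPM, while 4 T cell markers summed to at most 4.91 CPM and exocrine pancreas markers to at most 42 CPM. Alb made up most of the hepatocyte sum (44700 to 81500 CPM), and Cela1 nearly all of the pancreas sum (at most 41.5 CPM). Members had at least 48 counts in each library.

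Promoter windows of 300 bases around annotated transcription start sites were used for 24 of the 28 genes, from RefSeq on GRCm38.p6. Fdps, Fdft1, Sqle and Stard4 had no window among those used, which does not show that they lack an annotated start site. The windows of 4 genes are shown, chosen for the genes' levels and not for their letters. Hmgcs1 had the highest level per length and Mvd the widest range between libraries. Insig1 and Insig2 encode paired regulators, of which Insig1 was lowest and Insig2 highest in the same 2 natural females. Capitals mark 1 form of the sterol response element, TCACNCCAC, and the NF-Y motif CCAAT, on either strand. The windows lie at chr13:119690101-119690400 on the + strand (Hmgcs1), chr8:122443373-122443672 on the - strand (Mvd), chr5:28071162-28071461 on the + strand (Insig1) and chr1:121332540-121332839 on the - strand (the first of 3 windows of Insig2).
Hmgcs1: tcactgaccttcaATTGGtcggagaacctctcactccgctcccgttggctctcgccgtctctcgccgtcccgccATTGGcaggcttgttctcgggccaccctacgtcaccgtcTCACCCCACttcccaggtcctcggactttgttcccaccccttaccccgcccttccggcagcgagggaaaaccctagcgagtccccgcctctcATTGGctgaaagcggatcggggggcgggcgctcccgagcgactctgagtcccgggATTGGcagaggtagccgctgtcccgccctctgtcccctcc
Mvd: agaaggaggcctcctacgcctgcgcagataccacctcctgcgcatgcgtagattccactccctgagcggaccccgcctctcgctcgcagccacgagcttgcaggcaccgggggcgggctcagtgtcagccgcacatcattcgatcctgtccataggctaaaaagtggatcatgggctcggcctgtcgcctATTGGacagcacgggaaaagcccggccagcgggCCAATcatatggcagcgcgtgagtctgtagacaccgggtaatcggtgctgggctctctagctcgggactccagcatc
Insig1: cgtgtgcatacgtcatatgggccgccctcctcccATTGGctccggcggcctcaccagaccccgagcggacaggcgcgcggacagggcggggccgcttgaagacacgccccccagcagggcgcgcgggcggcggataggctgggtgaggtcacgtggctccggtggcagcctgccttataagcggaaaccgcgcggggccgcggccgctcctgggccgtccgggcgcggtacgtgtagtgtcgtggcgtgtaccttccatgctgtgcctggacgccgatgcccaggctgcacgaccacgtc
Insig2: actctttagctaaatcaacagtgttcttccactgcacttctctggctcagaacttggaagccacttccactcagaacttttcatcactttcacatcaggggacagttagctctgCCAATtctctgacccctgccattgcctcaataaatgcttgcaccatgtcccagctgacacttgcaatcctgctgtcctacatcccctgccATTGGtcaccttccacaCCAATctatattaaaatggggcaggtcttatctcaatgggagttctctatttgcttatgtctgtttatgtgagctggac
The Hmgcs1 window held a match to TCACNCCAC that began at position -137 from the start site, with 4 matches to CCAAT around it. TCACNCCAC occurred in 1 of 31 member windows and in 1.24% of all 32851 windows of the same length. CCAAT occurred in 21 of 31 member windows, or 67.7%, against 37.4% of all windows. The Sp1 motif GGGCGG, not marked above, occurred in 23 of 31, or 74.2%, against 35.7%, so a higher share was not particular to CCAAT. All windows were not limited to the genes tested in these livers. Windows 2 and 3 of Insig2, not shown, held 0 matches to CCAAT, and which start site these livers used was not tested. These matches describe the letters in a window and not the binding of a factor. Other forms of the sterol response element were not searched for, so a window without a match may still hold one.

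Levels were compared between genes per kilobase of exon. Averaged over the 12 libraries, Hmgcs1, the cytosolic synthase that supplies the pathway's committed step, was highest at 145 CPM per kb. Insig1 followed at 134 CPM per kb, then Idi1 at 92.7, the desaturase gene Sc5d at 90.4 and the sterol isomerase gene Ebp at 74.8. Lbr and Ggps1 were lowest, at 2.16 and 1.90 CPM per kb. Srebf2 and Mvk lay next above them, at 6.84 and 7.08 CPM per kb. The ranges over the 12 libraries overlapped between all neighbours in this order.

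Most members were high or low in the same libraries of a group. Summed over the 28 genes, IVF females had 5890, 2880 and 6500 CPM (replicates 1, 2 and 3), natural females 2090, 2690 and 3970, IVF males 3970, 5890 and 2320, and natural males 3150, 5200 and 5300. Every group therefore held a lower and a higher library, and the ranges of all 4 groups overlapped. The highest natural female, at 3970 CPM, was below the highest library of each other group (6500, 5890 and 5300 CPM). IVF female replicate 2 was the lowest of its group for 23 of 28 genes, IVF male replicate 3 for 25 and natural male replicate 1 for 21. Among natural females, replicate 1 was lowest for 15 and replicate 2 for 11. The lowest of all 12 libraries was natural female replicate 1 for 12 genes and natural female replicate 2 for 10, against 6.98% and 16.9% of all genes tested. The highest was IVF female replicate 3 for 10 genes, natural male replicate 3 for 7 and IVF female replicate 1 for 6, against 5.01%, 7.68% and 14.5% of all genes tested.

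**Figure D1:**
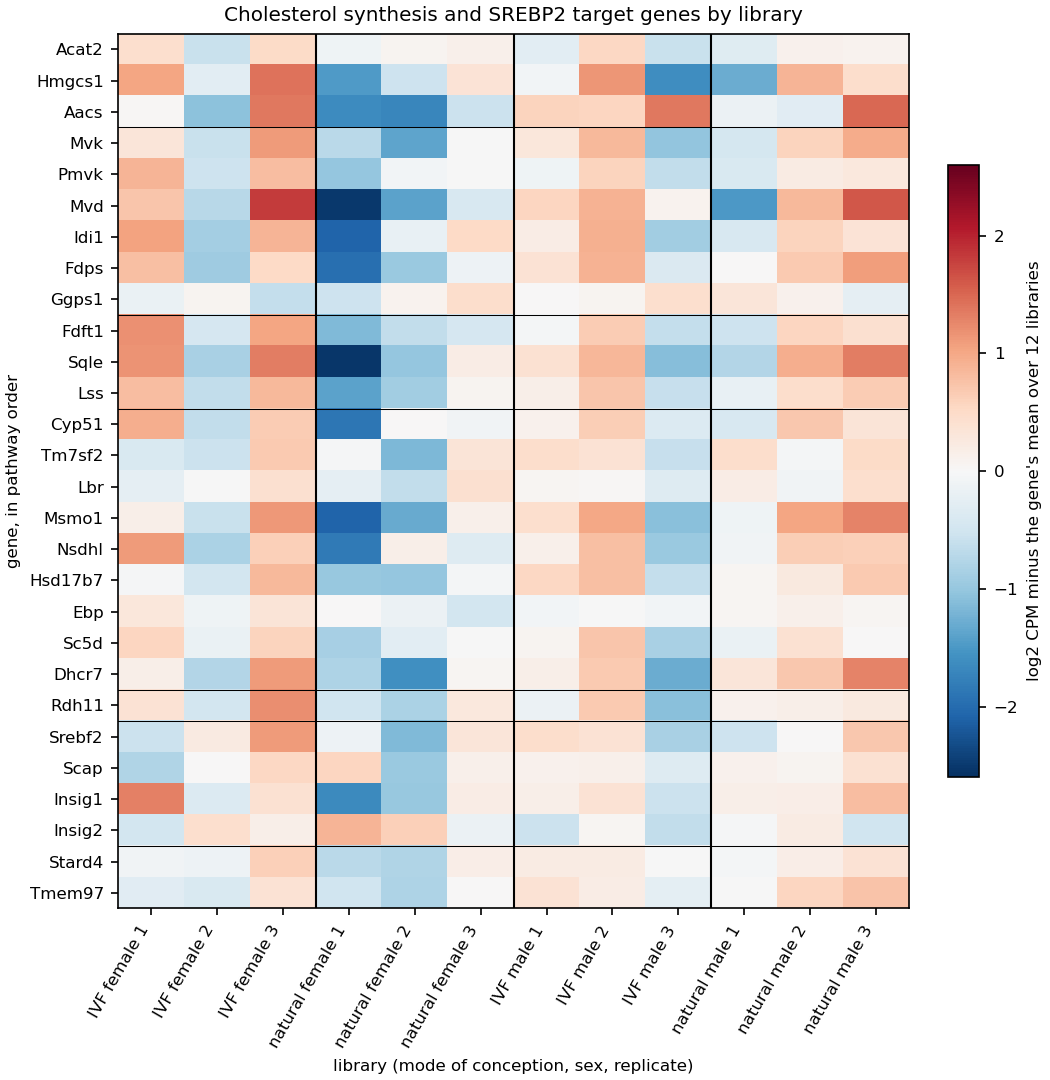
Deviation of each of the 28 genes (rows, in pathway order, thin lines between roles) in each of the 12 libraries (columns, thick lines between groups), with each gene centred on its mean log2 CPM over all libraries. Columns tend to be of one colour: natural female replicates 1 and 2, IVF female replicate 2 and IVF male replicate 3 are mostly below the mean. Natural male replicate 1 is so less strongly, with 10 of 28 genes above the mean. Insig2 and Ggps1 depart from the other rows.

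The members varied more between libraries of a group than most genes did. The median SD of log2 CPM between the 3 libraries of a group was 0.84 for the members against 0.37 for all genes tested in IVF females, and 0.71 against 0.41 in natural females. It was 0.62 against 0.26 in IVF males and 0.40 against 0.23 in natural males. The SD exceeded the all-gene median for 25, 24, 23 and 24 of the 28 genes, in the same order. The highest library of a group exceeded the lowest by a median of 3.05-fold in IVF females, 2.68-fold in natural females, 2.37-fold in IVF males and 1.67-fold in natural males. Mvd reached 8.75-fold within natural males, Hmgcs1 6.78-fold within IVF males and Sqle 6.67-fold within natural females. Ebp varied least, by 1.05-fold in IVF males and 1.07-fold in natural males.

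**Figure D2:**
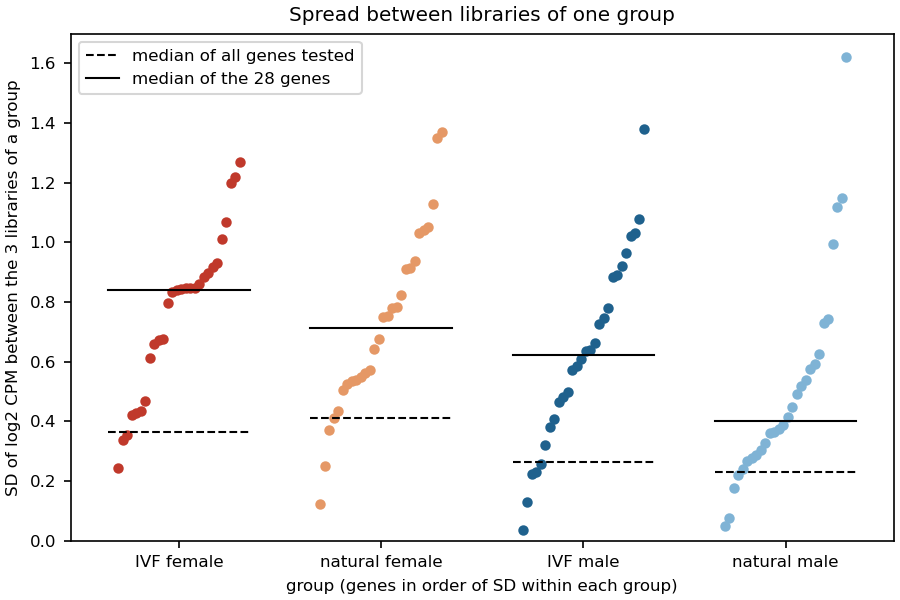
SD of log2 CPM between the 3 libraries of each group (y axis) for the 28 genes (points, in order within a group), with the median of the genes shown (solid line) and of all 13204 genes tested (dashed line). The solid line is above the dashed line in all 4 groups, at 0.84 against 0.37 in IVF females and 0.40 against 0.23 in natural males.

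To describe how closely single genes followed the others, each gene's deviation was set beside the median deviation of the other 27 in each library. The 2 had the same sign in at least 10 of 12 libraries for 20 of the 28 genes. Idi1, Sqle, Lss and Msmo1 were on the side of the others in 12 of 12. Insig2 and Ggps1 were on that side in 5 of 12, Ebp in 7 and Scap in 8. These libraries share depth and scaling with each other's genes, so the counts are a description.

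The first role is the supply of precursors. Hmgcs1 had 1090, 443 and 1420 CPM in IVF females, 192, 365 and 683 in natural females, 508, 1180 and 174 in IVF males and 218, 979 and 728 in natural males. All groups overlapped, and the lowest library was IVF male replicate 3. Aacs, which activates acetoacetate in the cytosol, had 33.7, 15.8 and 85.3 CPM in IVF females, 10.5, 10.2 and 22.5 in natural females, 49.2, 48.7 and 85.6 in IVF males and 29.7, 26.8 and 93.0 in natural males. The natural females were below all 6 male libraries for Aacs, and IVF female replicate 2 lay among them. IVF male replicate 3, the lowest of its group for most members, was the highest for Aacs. Acat2, the cytosolic thiolase, ranged only from 110 to 239 CPM.

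The second role is the making of isoprenoids from mevalonate. Mvd, the mevalonate diphosphate decarboxylase, had 25.4, 9.23 and 53.8 CPM in IVF females, 2.61, 5.75 and 11.4 in natural females, 22.5, 28.7 and 16.3 in IVF males and 5.34, 27.4 and 46.7 in natural males. Its highest library exceeded its lowest by 20.6-fold, the widest range of the 28 genes, and natural male replicate 1 lay within the natural females. Fdps, which makes farnesyl diphosphate, had 196, 60.1 and 163 CPM in IVF females, 29.3, 58.4 and 103 in natural females, 148, 213 and 88.2 in IVF males and 116, 182 and 243 in natural males. Natural females and natural males did not overlap for Fdps. Idi1, the isomerase of the isoprenoid unit, ranged from 65.1 CPM in natural female replicate 1 to 575 CPM in IVF female replicate 1. The kinase genes Mvk and Pmvk ranged from 6.35 to 35.8 and from 14.8 to 55.5 CPM. Ggps1, which leads away from sterols to geranylgeranyl diphosphate, had 7.72, 9.23 and 5.64 CPM in IVF females, 5.98, 9.35 and 12.0 in natural females, 8.86, 9.15 and 11.9 in IVF males and 11.0, 9.49 and 7.47 in natural males. Ggps1 was low in replicate 1 and high in replicate 3 of the natural females, as most members were, but in the other 3 groups it was highest in a library where most members were lowest.

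Squalene and lanosterol come next. Fdft1, squalene synthase and the first step committed to sterols, had 190, 61.1 and 169 CPM in IVF females, 37.0, 53.0 and 61.0 in natural females, 79.5, 130 and 53.9 in IVF males and 57.1, 121 and 111 in natural males. The female groups did not overlap, but the lowest IVF female and the highest natural female were nearly equal. Exons of Fdft1 share 18.3% of their bases with Ctsb on the opposite strand, and the use of strand in counting is not given in the sources used here, so reads of that stretch are uncertain. The same holds for overlaps on the opposite strand of Ggps1 with Arid4b (5.44%), Cyp51 with Akap9 (3.76%) and Lss with 4930483K19Rik (3.53%). Tm7sf2 shares 12.1% of its exon bases with Vps51 on the same strand, where reads are uncertain whatever the use of strand. Fdps has the largest overlap, 26.7% of its exon bases with Gm43738 on the same strand. Scap (13.2%), Hmgcs1 (12.1%), Lbr (9.24%) and Idi1 (9.22%) overlap genes on the opposite strand, and Lbr also overlaps Gm26004 on the same strand (1.45%). The partners of Fdps and of these members are not among the symbols of the count table. Sqle, squalene epoxidase, had 163, 40.9 and 184 CPM in IVF females, 12.6, 36.6 and 84.0 in natural females, 95.8, 134 and 33.8 in IVF males and 43.2, 142 and 185 in natural males. Sqle overlapped between all groups and had a 14.7-fold range. Lss, lanosterol synthase, ranged from 26.5 to 124 CPM.

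The sterol ring is then reduced and demethylated. Msmo1, the methylsterol oxidase, ranged from 42.5 to 442 CPM and Cyp51, the lanosterol demethylase, from 58.2 to 408 CPM, both lowest in natural female replicate 1. Dhcr7, the reductase of the last step, had 71.5, 38.0 and 139 CPM in IVF females, 36.8, 21.3 and 67.0 in natural females, 72.0, 104 and 26.4 in IVF males and 80.4, 105 and 159 in natural males. Natural males were all above natural females for Dhcr7. Ebp had 211, 159 and 215 CPM in IVF females, 173, 153 and 123 in natural females, 162, 170 and 164 in IVF males and 178, 189 and 177 in natural males. Ebp, which lies on the X chromosome like Nsdhl, kept within a 1.75-fold range. Lbr, a sterol reductase that is also a lamin receptor of the nuclear envelope, had 8.46, 9.98 and 13.5 CPM in IVF females, 8.5, 6.35 and 13.4 in natural females, 10.4, 10.3 and 7.91 in IVF males and 11.5, 9.34 and 13.6 in natural males. Tm7sf2, a reductase of the same step as Lbr, ranged from 40.9 to 147 CPM. Nsdhl and Hsd17b7, which act in demethylation, ranged from 19.2 to 148 and from 50.7 to 184 CPM, and Sc5d from 229 to 685 CPM.

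The regulators differed among themselves. Insig1 had 911, 285 and 481 CPM in IVF females, 116, 186 and 419 in natural females, 408, 475 and 250 in IVF males and 409, 415 and 636 in natural males. Insig2 had 136, 257 and 211 CPM in IVF females, 351, 294 and 172 in natural females, 129, 198 and 123 in IVF males and 186, 222 and 133 in natural males. Over all 12 libraries, Insig1 was lowest and Insig2 highest in natural females 1 and 2, and Insig1 was highest in IVF female replicate 1, the library with the least Insig2 of its group. Srebf2, which encodes SREBP2, had 30.4, 52.3 and 96.8 CPM in IVF females, 40.6, 20.1 and 56.0 in natural females, 61.4, 58.2 and 25.0 in IVF males and 30.6, 45.2 and 72.9 in natural males. Scap had 71.4, 123 and 178 CPM in IVF females, 180, 62.8 and 133 in natural females, 133, 133 and 97.3 in IVF males and 131, 129 and 161 in natural males. The shallow libraries were the lowest of their groups for both Srebf2 and Scap.

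**Figure D3:**
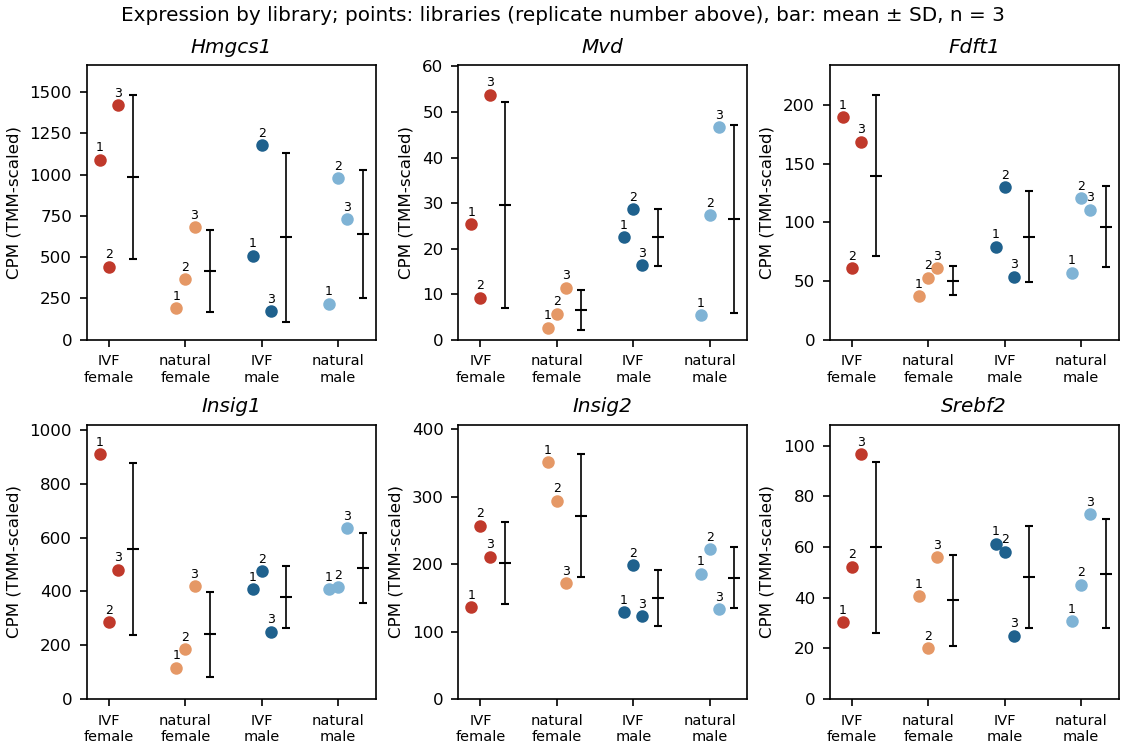
Expression of 6 genes in CPM (y axes from 0) in the 12 libraries (points with replicate numbers) by group, with the mean and SD of n = 3 beside them. For Hmgcs1, IVF females range from 443 to 1420 CPM and natural females from 192 to 683, and for Insig2 natural female replicates 1 and 2 are the highest of the 12 libraries at 351 and 294 CPM.

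Among the other targets, Tmem97, an endoplasmic reticulum protein of cholesterol trafficking, had 53.0, 49.1 and 84.3 CPM in IVF females, 45.1, 37.3 and 65.5 in natural females, 84.2, 74.6 and 54.7 in IVF males and 64.5, 95.2 and 108 in natural males. Natural males and natural females overlapped only by natural male replicate 1 and natural female replicate 3. Stard4, a cytosolic sterol carrier, ranged from 69.7 to 184 CPM and Rdh11, a retinol dehydrogenase, from 13.3 to 66.0 CPM.

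The study's design asks first how IVF and natural females differ. Most members had higher fitted levels in IVF females: 25 of 28 log2 fold changes were above 0 and their median was 0.82, against 47.8% above 0 and a median of -0.01 over all genes tested. None of the 28 passed an adjusted p of 0.05 in edgeR's quasi-likelihood test, where 0% of all genes passed, and DESeq2 and limma voom also called 0 members. At an unadjusted p under 0.05 there were 5 members higher and 0 lower, against 1.7% and 1.99% of all genes. Fdft1 was the 1 member higher without overlap of the libraries, and 0 were lower, against 3.55% and 3.87% of all genes.

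Fdft1 had a log2 fold change of 1.47 ± 0.45 (SE, n = 3 against 3, adjusted p = 1 in edgeR). Mvd had 2.17 ± 0.79 and Aacs 1.64 ± 0.64 on the log2 scale, and Insig1 1.22 ± 0.50. The other gene of that group was Lss, at 1.08 ± 0.48. By role, the median log2 fold change was 1.47 for squalene and lanosterol (3 genes), 1.25 for precursor supply (3), 0.92 for mevalonate and isoprenoids (6) and 0.83 for the sterol ring, where 9 of 9 were above 0. It was 0.55 for the other targets (3) and 0.30 for regulation (4). Srebf2 had 0.62 ± 0.50, Scap -0.02 ± 0.37 and Insig2 -0.44 ± 0.33, and Ggps1 was the third member below 0, at -0.27 ± 0.29. Single libraries weighed on these values: the median was 0.53 without IVF female replicate 3 and 1.18 without IVF female replicate 2. The number of members at an unadjusted p under 0.05 was 16 without IVF female replicate 2 and 13 without natural female replicate 3. It was 8 without IVF male replicate 3, 3 without IVF female replicate 1 or natural female replicate 2, and 2 without IVF female replicate 3 or natural female replicate 1. Without IVF female replicate 3, Mvd had a log2 fold change of 1.37 and Aacs 0.76. Insig1 had 0.68 without IVF female replicate 1 and 1.90 without natural female replicate 3. Without both shallow libraries the median was 0.70 with 25 of 28 above 0, 1 member rather than 5 had an unadjusted p under 0.05, and Insig1 had 0.52.

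**Figure D4:**
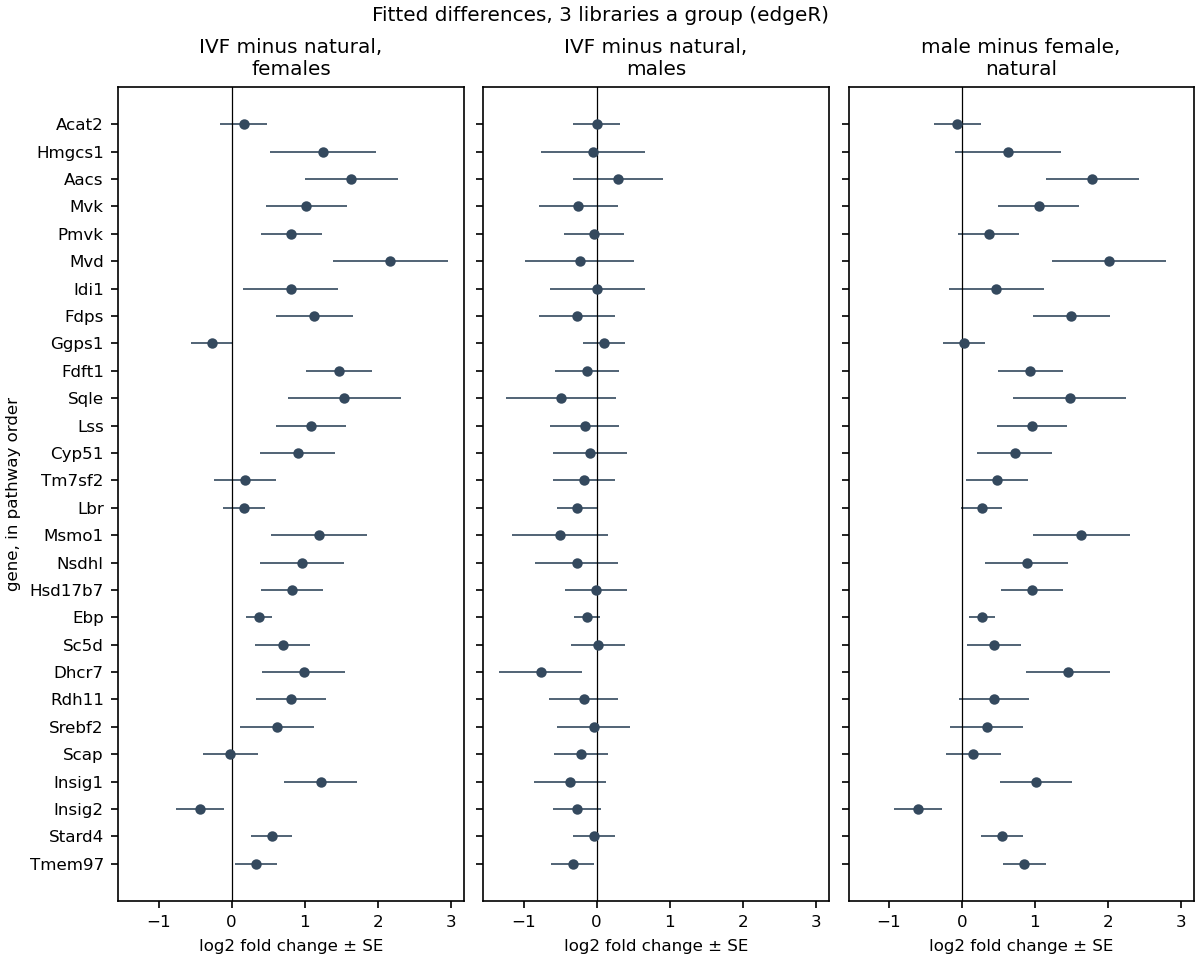
Fitted log2 fold change with its SE (x axis) of each of the 28 genes (rows) in 3 comparisons. In females 25 points are right of 0, in males 4, and between natural males and natural females 26, and none of the genes passed the adjusted threshold.

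In males the same question gave values near 0. The log2 fold change of IVF against natural males was above 0 for 4 of 28 members, with a median of -0.17, against 51.6% and 0.01 over all genes. None passed an adjusted p of 0.05 in edgeR, DESeq2 or voom (0.00757% of all genes in edgeR), and 0 were higher and 0 lower at an unadjusted p under 0.05, against 1.21% and 1.48% of all genes. Ebp was lower without overlap and 0 members were higher, against 4.07% and 4.85% of all genes, yet its difference was small at -0.13 ± 0.18. Dhcr7 had -0.77 ± 0.57, Tmem97 -0.33 ± 0.29 and Lbr -0.27 ± 0.28 on the log2 scale. Srebf2 had -0.04 ± 0.50, Scap -0.21 ± 0.37, Insig1 -0.36 ± 0.49 and Insig2 -0.27 ± 0.33. The side of 0 rested on the scaling and on single libraries: 13 of 28 were above 0 with library size alone, where the all-gene median also shifted to 0.14, and 16 of 28 without IVF male replicate 3, where the median was 0.05. Without IVF male replicate 2 the median was -0.43, and without natural male replicate 3 it was -0.03. Markers of Kupffer cells, the liver's resident macrophages, were lower in IVF males for 5 of 5 genes, of which 0 passed the adjusted threshold, and summed to 114 to 174 CPM against 210 to 244 in natural males. Also below 0 were 6 of 6 hepatocyte, 5 of 5 cholangiocyte and 5 of 5 sinusoidal endothelium markers, with median log2 fold changes of -0.39, -0.26 and -0.21, while 4 of 4 B cell markers were above 0, with 0 called in each list. Hepatocyte markers summed to 66300 to 79700 CPM in IVF males and 83100 to 89000 CPM in natural males. Most of these sums was Alb, with 44700 to 55400 and 56700 to 60900 CPM. The part of these markers in the members' values was not tested, and in bulk tissue fewer cells of a type and less RNA per cell cannot be told apart.

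The difference between the IVF effects, males minus females, was below 0 for 26 of 28 members, since 2 were above 0 (against 53.6% of all genes), and its median was -0.92 against 0.03 over all genes. None passed an adjusted p of 0.05 in edgeR's interaction test, where 0% of all genes passed, nor in DESeq2 or voom. At an unadjusted p under 0.05 there were 3 members lower and 0 higher, against 2.09% and 1.78% of all genes. These were Fdft1 at -1.61 ± 0.63, Insig1 at -1.58 ± 0.70 and Mvd at -2.40 ± 1.08 on the log2 scale. Srebf2, Scap and Insig2 had -0.66 ± 0.71, -0.19 ± 0.53 and 0.17 ± 0.46. Without both shallow libraries 0 members had an unadjusted p under 0.05, and the median was -0.83. The median was -0.59 without IVF female replicate 3. The count was also 0 without IVF female replicate 1 or 3, IVF male replicate 1 or 3, or natural male replicate 3, and 0 with library size alone. It was 1 without natural female replicate 1 or 2 or natural male replicate 2, and 5 without natural male replicate 1. It was 9 without IVF female replicate 2, 8 without IVF male replicate 2 and 11 without natural female replicate 3.

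Between natural males and natural females, 26 of 28 members had higher fitted levels in males. The median log2 fold change was 0.68, against -0.02 and 47.9% above 0 over all genes. None of the members passed an adjusted p of 0.05 in edgeR, where 1.77% of all genes passed, nor in DESeq2 or voom. At an unadjusted p under 0.05 there were 7 members higher and 0 lower, against 7.21% and 7.71% of all genes. Without overlap of the libraries 5 were higher (Aacs, Dhcr7, Ebp, Fdps and Hsd17b7) and 0 lower, against 10.1% and 9.85% of all genes. The lowest adjusted p was that of Tmem97, with a log2 fold change of 0.86 ± 0.29 (n = 3 against 3, adjusted p = 0.193 in edgeR). Over the alternatives the lowest adjusted p of any member ranged from 0.0607 with DESeq2 to 0.508 in edgeR without natural male replicate 3. Of the 234 genes called in edgeR 118 were higher and 116 lower, and with library size alone 88 were higher and 422 lower.

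Fdps had a log2 fold change of 1.5 ± 0.53 between natural males and females (adjusted p = 0.203 in edgeR) and Aacs 1.79 ± 0.64 (adjusted p = 0.208 in edgeR). Insig1 had 1.02 ± 0.50, Srebf2 0.34 ± 0.50, Scap 0.16 ± 0.37 and Insig2 -0.60 ± 0.33. Insig2 and Acat2 were the members below 0. With library size alone the median of all genes shifted to -0.34, that of the members was 0.33 and 22 of 28 were above 0, while 26 of 28 stayed above the all-gene median. Without both shallow libraries 1 member had an unadjusted p under 0.05, and without natural male replicate 3 there were 0. The count was 1 without natural female replicate 1, 2 without natural female replicate 2, 14 without natural female replicate 3 and 11 without natural male replicate 1. Without natural female replicate 3 the median was 1.03, and with library size alone the count was 2. Markers of other cells also differed between natural males and females: 0 of 4 B cell and 0 of 4 T cell markers were above 0, with medians of -2.18 and -1.55, and 1 of 5 stellate cell markers was above 0, with 0 called in these 3 lists. B cell markers summed to 0.503 to 1.34 CPM in natural males and 1.68 to 3.89 in natural females, T cell markers to 0.553 to 0.949 and 1.48 to 4.91, and stellate cell markers to 171 to 251 and 230 to 287. Of the 5 listed adipocyte markers Adipoq, Plin1 and Retn did not pass the filter, with at most 0.0984, 0.137 and 0 CPM in any library. Of the 2 tested, Car3 rose, by 1.84 on the log2 scale (adjusted p = 0.00661 in edgeR), and Cidec was not called. Car3 had 5060, 5740 and 5630 CPM in natural males and 1950, 1450 and 1190 in natural females. It made up nearly all of the list's sum, which is therefore not read as adipocyte content. The part of all these markers in the members' values was not tested.

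Between IVF males and IVF females the members lay slightly to the other side. Above 0 were 6 of 28, with a median log2 fold change of -0.26, against 50.7% and 0.01 over all genes. None passed an adjusted p of 0.05 in edgeR, where 2.19% of all genes passed, nor in DESeq2 or voom. The genes called were 120 higher and 169 lower in edgeR, and 92 and 221 with library size alone. At an unadjusted p under 0.05, 0 members were higher and 0 lower, against 7.01% and 7.92% of all genes. Without overlap, 0 were higher and 0 lower, against 11.8% and 10.1%. Fdft1 had -0.67 ± 0.44, Ggps1 0.41 ± 0.29 and Ebp -0.24 ± 0.18 on the log2 scale. Insig1 had -0.56 ± 0.49, Insig2 -0.43 ± 0.33, Srebf2 -0.32 ± 0.50 and Scap -0.04 ± 0.37. The median was 0.02 without IVF female replicate 3 and -0.61 without IVF male replicate 2, where 2 members had an unadjusted p under 0.05, and 1 had it without IVF female replicate 2. Without both shallow libraries the median was -0.185 with 6 of 28 above 0. Insig1 then had -0.05, Fdft1 -0.42 and Srebf2 -0.66. Kupffer cell markers were below 0 for 5 of 5 genes, and 2 of them fell: Vsig4 by 1.81 and Clec4f by 1.05 on the log2 scale (adjusted p = 0.0039 and 0.0215 in edgeR). They summed to 114 to 174 CPM in IVF males and 235 to 344 in IVF females. Stellate cell, sinusoidal endothelium and T cell markers were above 0 for 0 of 5, 0 of 5 and 0 of 4 genes, with 0 called, and summed to 168 to 195 against 276 to 328, 102 to 120 against 127 to 155 and 0.492 to 1.05 against 1.84 to 2.82 CPM. Of the adipocyte list only Car3 and Cidec passed the filter, and both rose, by 1.36 and 1.93 on the log2 scale (adjusted p = 0.0276 and 0.0424 in edgeR). Car3 had 4700, 6940 and 5760 CPM in IVF males and 2380, 2840 and 1570 in IVF females, and Cidec at most 5.22 CPM in any library. With Adipoq, Plin1 and Retn near 0, these values are not read as adipocyte content. The part of all these markers in the members' values was not tested. The comparisons share groups: natural females are the reference in females, in the difference and between the natural sexes, so the values above are not separate evidence.

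Other lists of the pathway's surroundings were set beside the members. The processing of SREBP and the sterol-regulated degradation machinery had 12 genes tested, with 8 above 0 in IVF against natural females, a median of 0.02, 0 called, and extremes of -0.12 in Vcp and 0.63 in Syvn1. Targets of the oxysterol receptor LXR and sterol efflux (10 genes) had 6 above 0, a median of 0.06, 0 called, and extremes of -0.36 in Nr1h2 and 0.85 in Pltp. Sterol storage and transport (13 genes) had 7 above 0 and a median of 0.02, from Gramd1a at -0.30 to Gramd1c at 0.42, with 0 called. The branch to dolichol, ubiquinone and prenylated proteins (12 genes) had 6 above 0 and a median of -0.02, from Rabggtb at -0.30 to Pdss1 at 0.55, with 0 called. The medians of these 4 lists lay close to the all-gene median, and the difference between lists and members was not tested. In males their medians ran from -0.08 to -0.04 with 0 called. Between natural males and females, 1 gene of the storage and transport list was called: Scp2, a sterol carrier of peroxisomes, rose in males by 1.06 ± 0.22 on the log2 scale (adjusted p = 0.0355 in edgeR). Scp2 had 1130, 1510 and 1250 CPM in IVF females, 1160, 1360 and 1160 in natural females, 2640, 3070 and 3080 in IVF males and 3230, 2230 and 2190 in natural males. All 6 male libraries were above all 6 female libraries for Scp2, which none of the 28 members showed.

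Fatty acid synthesis under the related factor SREBP1 had 16 genes, with 14 above 0 in IVF against natural females, a median of 0.47 and 0 called. Its extremes were Me1, malic enzyme, at -0.17 and Thrsp, a lipogenic regulator, at 2.47. Thrsp had 498, 59.7 and 148 CPM in IVF females, 11.0, 19.8 and 96.3 in natural females, 122, 284 and 292 in IVF males and 318, 119 and 440 in natural males. Natural females 1 and 2 were the lowest libraries for Thrsp, as for many members.

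The core clock (12 genes tested) had 8 above 0 in IVF against natural females, with a median of 0.37, 0 called, and extremes of -1.57 in Arntl and 2.01 in Ciart. At an unadjusted p under 0.05, 3 clock genes were higher (Per1, Per2 and Per3) and 2 lower (Arntl and Clock), and all of these but Arntl differed without overlap of the libraries. Arntl, an activator of the clock, had 4.30, 6.69 and 2.91 CPM in IVF females, 15.5, 22.2 and 4.23 in natural females, 2.47, 2.85 and 2.70 in IVF males and 2.65, 2.10 and 2.21 in natural males. Natural females 1 and 2 stood apart as the highest libraries for Arntl. Ciart, a clock repressor, had 12.5, 1.45 and 6.24 CPM in IVF females, 0.16, 1.56 and 3.19 in natural females, 6.45, 11.0 and 7.06 in IVF males and 16.8, 3.05 and 14.5 in natural males. Arntl fell in natural males against natural females, by 2.58 on the log2 scale (SE 0.50, adjusted p = 0.0244 in edgeR), and was the clock gene called there. The mean deviation of the clock list was -0.88 and -0.54 in natural females 1 and 2 and between -0.31 and 0.49 in the other 10 libraries. The mean deviation of the 28 members was -0.997 and -0.695 in the same 2 libraries, 0.04 in natural female replicate 3 and -0.44 to 0.78 in IVF females. The male libraries ranged from -0.55 to 0.56 after IVF and from -0.20 to 0.59 after natural conception. The lists parted in males: IVF male replicate 3 had -0.55 for the members and 0.07 for the clock, and natural male replicate 2 had 0.38 and -0.31. The part of collection time or feeding in the members' differences was not tested, and neither is given in the labels.

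**Figure D5:**
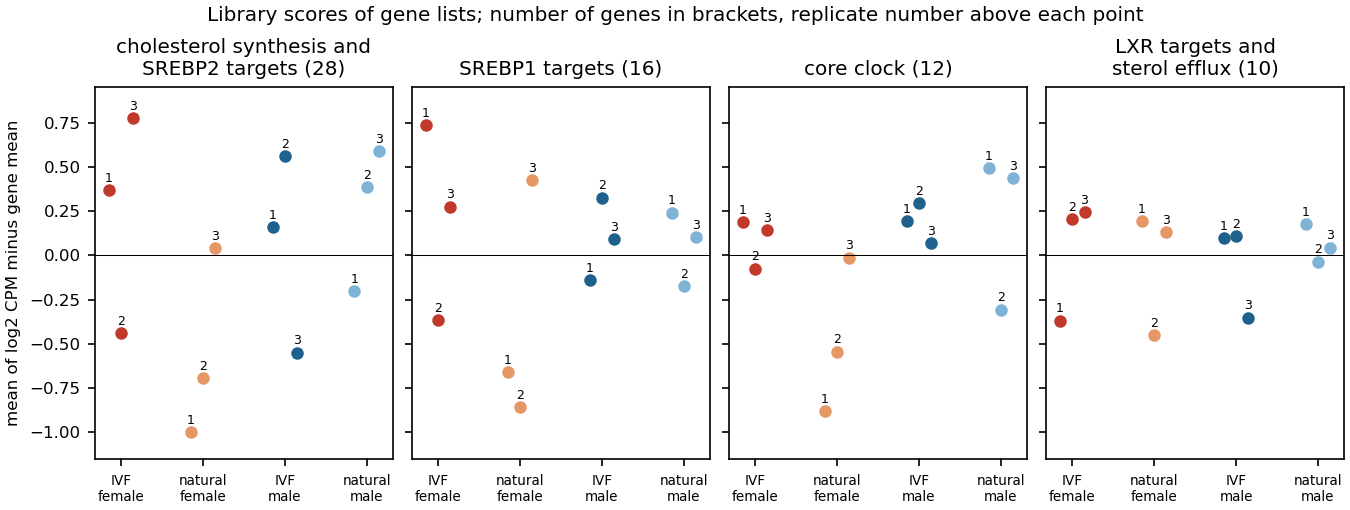
Mean deviation of a list's genes, each centred on its own average log2 CPM (y axis), in each library (points with replicate numbers) by group, for the 28 members and 3 other lists. Natural female replicates 1 and 2 are the lowest libraries for the members (-0.997 and -0.695), and they are also low for the SREBP1 and clock lists.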

How the data were processed

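The data were deposited by the authors as 1 table of read counts per gene symbol, with a column for each of the 12 poly-A selected liver libraries. Trimmomatic 0.32, STAR 2.3.0e, featureCounts 1.5.0 and the mm10 build are named per the submitters' processing notes. Their settings, the gene annotation, the use of strand and the handling of reads that match several genes are not given in the sources used here. Each column name was the same as 1 sample title.

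Counts were tested as deposited with edgeR 4.0.16 in R 4.3.3, using filterByExpr by group, TMM scaling and 1 quasi-likelihood model with 4 group means and 8 residual degrees of freedom. P-values were adjusted by Benjamini-Hochberg over all 13204 genes tested and called under 0.05. SE is the fitted log2 difference over the square root of F, and deviations use log2 CPM with a prior count of 2. The code was checked on simulated data. A count of 0 would allow up to 0.439 CPM in the smallest library and 0.108 in the largest (3 counts). Exon length, GC content and positions came from GENCODE M21 (GRCm38), which gave GC content for 99.4% of the tested genes. Alternatives used DESeq2 1.42.0, limma 3.58.1 (voom), other scalings and filters, a loess GC offset (span 0.5), a covariate for the shallow libraries, and each library left out. Leaving out both shallow libraries was chosen after seeing the data.

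Given in full are the 3 members of smallest unadjusted p in each comparison and the 4 regulators. The genes Hmgcs1, Sqle, Idi1, Lss and Thrsp, among others outside this rule, were described after their values were seen. The members and lists were chosen with earlier results of these data known.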

Additional observations from a re-analysis of the deposited data

How the results depend on the processing

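Members called numbered 0 under all alternatives run. Each median moved by less than 1 SD of the members' mean deviation between libraries of a group. That SD was 0.41 to 0.618 by group, wider than the medians of -0.17 in males and -0.26 between IVF sexes. Staying within it is therefore a weak limit and does not show that the medians were stable. In females the median ran from 0.53 to 1.18 with a library left out, and the medians near 0 changed sign in males and between IVF sexes. Calls over all genes varied more, and the cause was not tested. In females there were 0 calls, and 4 with DESeq2. In males there was 1, with 5 by DESeq2, 0 by voom, and 0 to 1 with a library left out. The difference between the sexes had 0 calls, and 9 with DESeq2. Natural males against females had 234 calls, 510 with library size alone (88 higher and 422 lower), 678 with DESeq2, 458 with the covariate, 139 from the groups compared alone and 111 to 263 with a library left out. IVF males against females had 289, 721 with DESeq2, 438 with the covariate and 137 to 348 with a library left out. Regulators near 0 changed sign. For Scap these were 0.02 (voom and covariate) and 0.06 (GC offset) in females, 0.01 (library size alone) for the difference, -0.16 (library size alone), -0.12 (covariate) and -0.17 (without both shallow libraries) between natural sexes, and 0.06 (voom) between IVF sexes. Srebf2 in males had 0.11 with library size alone, and Insig2 for the difference -0.13 without both shallow libraries. With a library left out, Scap ran from -0.37 to 0.34 in females, -0.55 to 0.16 for the difference, -0.16 to 0.52 between natural sexes and -0.34 to 0.32 between IVF sexes. Srebf2 ran from -0.29 to 0.35 in males, -0.04 to 0.70 between natural sexes and -0.66 to 0.22 between IVF sexes, and Insig2 from -0.09 to 0.38 for the difference. No paired analysis was possible because replicate numbers only follow the accession order, and the titles share 1 number between 2 IVF libraries, too few for a block. The fewest calls were made without natural male replicate 3 (111) and IVF male replicate 3 (137). The lowest count of a member in a library was 48.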
